A study of Arabidopsis thaliana and Lactuca sativa with 158 samples.

Results

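The 12 libraries described here come from lettuce (Lactuca sativa, Salinas) carrying the RUBY reporter under a ubiquitin promoter, out of 158 libraries in the study. They were chosen by their labels: the lettuce libraries whose construct is AtUBQ::RUBY or LsUBQ::RUBY and whose title calls the leaf Always Green (6 libraries) or Always Red (6 libraries). Each library is total RNA of leaf tissue from plants that were 4 weeks old and of genotype Wt, so the groups share cultivar, tissue, age and reporter. The green libraries come from line Ls700 (replicates 1 to 3) and line Ls701 (replicates 1 to 3). The red libraries come from lines Ls880 (replicate 9), Ls886 (replicate 7), Ls951 (replicate 8) and Ls998 (replicates 7, 8 and 9). No line is in both groups, so leaf colour and transgenic line cannot be told apart in this comparison, which sets 2 green lines against 4 red lines. All 6 green libraries are labelled AtUBQ, as are 2 of the red ones (Ls880 and Ls886), and the other 4 red libraries are labelled LsUBQ. The names of the deposited tables give the other ubiquitin promoter for Ls700 and Ls951 (4 libraries), so the promoter of those lines is uncertain. The labels do not say whether replicates are separate plants, and p-values then measure only the spread between these libraries.

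RUBY is a visible reporter. It encodes, as one transcript, the enzymes that turn tyrosine into the red betalain pigment of beet: the cytochrome P450 CYP76AD1, which oxidises tyrosine and L-DOPA, a DOPA dioxygenase, which forms betalamic acid, and a glucosyltransferase, which yields the coloured betacyanin. Plants can silence a transgene either by stopping its transcription or by degrading its RNA, and a RUBY leaf that loses the RNA is green. The study asks how the RNA of a transgene relates to its silencing, and this comparison asks how much RUBY RNA lies in leaves that were always green and in leaves that were always red.

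RNA was ligated to an adapter at its 3′ end, copied to cDNA, captured with probes for chosen targets and read on nanopores, a method the study names "All-in-One" RNA-seq. The values are a normalised read signal per target, split into sense reads marked pA and sense reads not marked pA. The labels do not define pA, which is taken here as a poly(A) tail. The lettuce tables list 32 targets, RUBY among them, all others being named for Arabidopsis genes or construct elements. Within each library all values were whole multiples of 1 step, the worth of 1 read (3.59 to 6.59 signal units in the 12 libraries), from which a minimum number of reads was inferred. The libraries hold few reads: 67 to 201 in the green group and 1258 to 4083 in the red group over all targets. The gap lies in the RUBY reads: the summed signal of all targets other than RUBY was 441 ± 89.7 in green and 408 ± 168 in red leaves (SD, n = 6 each).

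RUBY RNA was far lower in the always green leaves, with at least 1 RUBY read in all 6 of them. In line Ls700 the RUBY signal was 5.14, 131 and 30.95 in replicates 1, 2 and 3. In line Ls701 it was 38.05, 48.6 and 461. These values rest on 1, 28, 6, 7, 10 and 87 reads in the same order, so the lowest library holds a single RUBY read. Every lettuce library of the study is labelled with a RUBY construct, so the background level for such low counts is not known. In the red leaves the signal was 13382 in Ls880, 7668 in Ls886 and 6852 in Ls951. Line Ls998 gave 10684, 14429 and 10184 in replicates 7, 8 and 9. The highest green library (Ls701 replicate 3) therefore lay below the lowest red library (Ls951), and the groups did not overlap.

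The mean RUBY signal was 119 ± 173 in green and 10533 ± 3007 in red leaves (SD, n = 6 each), 88.5-fold higher in red by these means. Ls701 replicate 3 holds most of the green sum, and without it the fold of means was 208. On the log2(signal + 1) scale the difference green minus red was -7.57 (means 5.74 ± 2.09 and 13.31 ± 0.43), which is 190-fold. A 2-sided exact permutation test over the 12 libraries gave p = 0.00216, the smallest that 6 against 6 allows (p = 0.00271 after Benjamini-Hochberg adjustment over 5 RUBY measures). In limma's moderated test over the 4 targets read in most libraries, RUBY had a log2 difference green minus red of -7.57 (SE 0.81, 95% interval -9.34 to -5.80, adjusted p = 3.05e-06). RUBY was the 1 of 4 tested targets called lower in green (25%), and 0 of 4 (0%) were called higher by limma at an adjusted p below 0.05, nor was any higher at an unadjusted p below 0.05 or by the permutation test. Averaged by line (2 against 4) the difference was -7.48, but no arrangement of so few lines can give an exact permutation p below 0.133. In leaf tissue taken whole, fewer cells with RUBY RNA and less RUBY RNA per cell cannot be told apart.

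**Figure D1:**
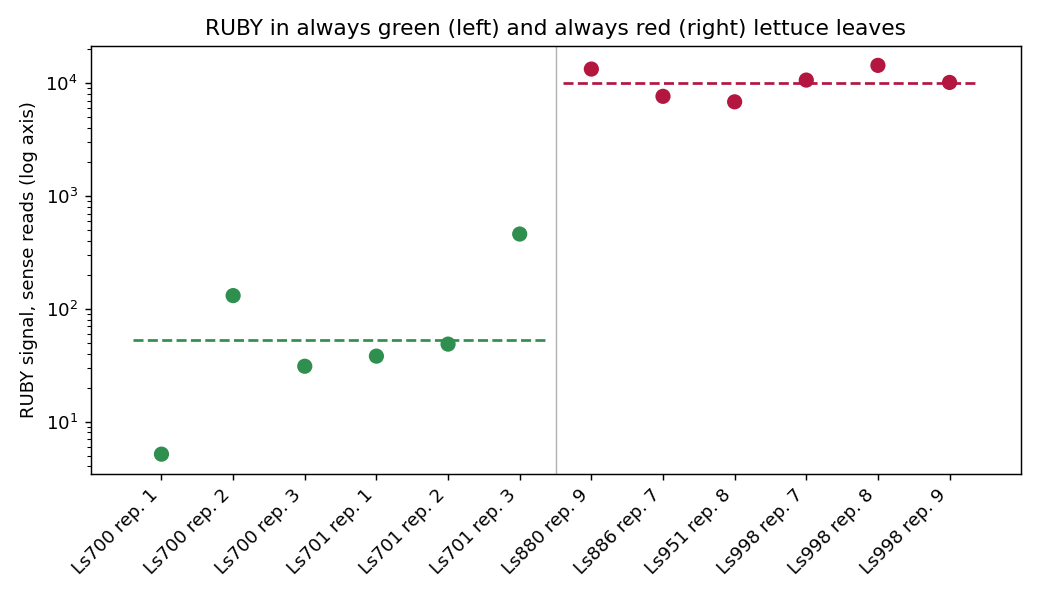
RUBY signal of sense reads (log axis) in each of the 12 libraries, green points for always green and red points for always red leaves; dashed lines are the group means on the log2(signal + 1) scale. The green libraries lie between 5.14 and 461 and the red ones between 6852 and 14429, with no overlap.

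The green leaves varied more among themselves than the red ones, in a comparison of ranges that was not tested. The highest green library had 89.6 times the RUBY signal of the lowest, against 2.11 times among the red libraries. The green ratio rests on both ends of the group: it was 14.9 without Ls700 replicate 1, which holds 1 read, and 25.5 without Ls701 replicate 3. Within the green group the lines overlapped: Ls700 averaged 55.7 ± 66.5 and Ls701 averaged 182 ± 241 (SD, n = 3 each). The spread thus lay within each line, and in Ls701 it came from replicate 3, whose 461 stood above 38.05 and 48.6. Line Ls998, the only red line with more than 1 always red library, averaged 11766 ± 2320 (SD, n = 3).

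The same contrast appeared in the share of all captured signal that was RUBY. In green leaves RUBY took 1.49% to 43.3% of a library's summed signal (15.4% ± 15.2, SD, n = 6), and in red leaves 93.6% to 98.5% (96.0% ± 1.94, n = 6). The difference was -80.5 percentage points (exact permutation p = 0.00216, adjusted p = 0.00271). Because the share is formed within a library, the authors' scaling between libraries does not enter it.

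Both kinds of RUBY read were low in green leaves. Reads marked pA gave a signal of 5.14 to 63.5 in green leaves (21.2 ± 23.2, SD, n = 6) and 2773 to 4900 in red leaves (3725 ± 785, n = 6), a log2 difference of -7.95. Reads not marked pA gave 0 to 397 in green leaves (97.9 ± 150, n = 6) and 3808 to 10255 in red leaves (6808 ± 2555, n = 6), a log2 difference of -7.62. Neither kind overlapped between the groups, and each gave the smallest exact permutation p, 0.00216 (adjusted p = 0.00271). The library with 0 unmarked signal was Ls700 replicate 1, whose single read was marked pA.

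Summed over libraries, most RUBY reads carried no pA mark in leaves of either colour. Among red leaves the marked share was 36.6% in Ls880 (95% exact binomial interval 34.5 to 38.8, 2032 reads), 50.3% in Ls886 (47.4 to 53.2, 1178 reads) and 43.3% in Ls951 (40.9 to 45.8, 1592 reads). In Ls998 it was 34.4% (32.1 to 36.7, 1705 reads), 28.9% (27.5 to 30.4, 4020 reads) and 27.2% (25.2 to 29.4, 1792 reads). Red libraries thus differed by more than counting error, those of Ls998 among them. Since 3 of the 4 red lines have 1 library each, a difference between lines cannot be told apart from one between libraries. Intervals cover counting error only, since reads have no molecular identifiers and copies of one molecule may be counted.

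Among green leaves the intervals were wide. In Ls700 the share was 100% of 1 read, 25.0% of 28 reads (10.7 to 44.9) and 33.3% of 6 reads (4.33 to 77.7). In Ls701 it was 14.3% of 7 reads (0.361 to 57.9), 20.0% of 10 reads (2.52 to 55.6) and 13.8% of 87 reads (7.34 to 22.9). The interval of Ls701 replicate 3 alone lies wholly below the share of every red library.

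The mean marked share was 34.4% ± 33.0 in green and 36.8% ± 8.78 in red leaves (SD, n = 6 each), a difference of -2.40 percentage points that was within the spread between libraries (exact permutation p = 0.937, adjusted p = 0.937). This mean gives the 1 read of Ls700 replicate 1 the weight of a whole library. Without that library the difference was -15.5 percentage points (exact permutation p = 0.0173, 5 green against 6 red libraries). Summed over libraries, 25 of 139 green RUBY reads were marked (18.0%, interval 12.0 to 25.4) against 4264 of 12319 red reads (34.6%, interval 33.8 to 35.5), with 87 of the green reads from Ls701 replicate 3. Summed by line, the share was 28.6% in Ls700 and 14.4% in Ls701, and between 29.8% (Ls998) and 50.3% (Ls886) in the red lines. Both green lines lay below all 4 red lines, which gives the smallest exact permutation p for 2 against 4, 0.133. Ls700, with few reads, lay only just below Ls998.

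RUBY reads were marked less often than reads of AXS2 in the same library, in a comparison added after the values were seen. AXS2 is named for the Arabidopsis UDP-apiose/UDP-xylose synthase 2, an enzyme of cell wall sugar supply, and had the most reads of all targets other than RUBY, summed over the 12 libraries. In each of the 6 green libraries AXS2 had more reads than RUBY (431 against 139 in sum). Its marked share was 78.4% ± 4.36 in green and 72.1% ± 15.9 in red leaves (SD, n = 6 each). In red leaves RUBY lay below AXS2 in 6 of 6 libraries (mean difference RUBY minus AXS2 -35.3 percentage points, exact sign-flip permutation p = 0.0312, the smallest for 6 pairs). In green leaves it did so in 5 of 6 libraries, the exception being Ls700 replicate 1 (mean difference RUBY minus AXS2 -44.0 percentage points, exact sign-flip permutation p = 0.0625). The targets AGL20 and UBP1B, described below, had fewer reads. Of summed red reads, 18.8% were marked for AGL20 (3 of 16) and 73.0% for UBP1B, against 34.6% for RUBY. Of summed green reads, 80% and 76.5% were marked, against 18.0% for RUBY.

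**Figure D2:**
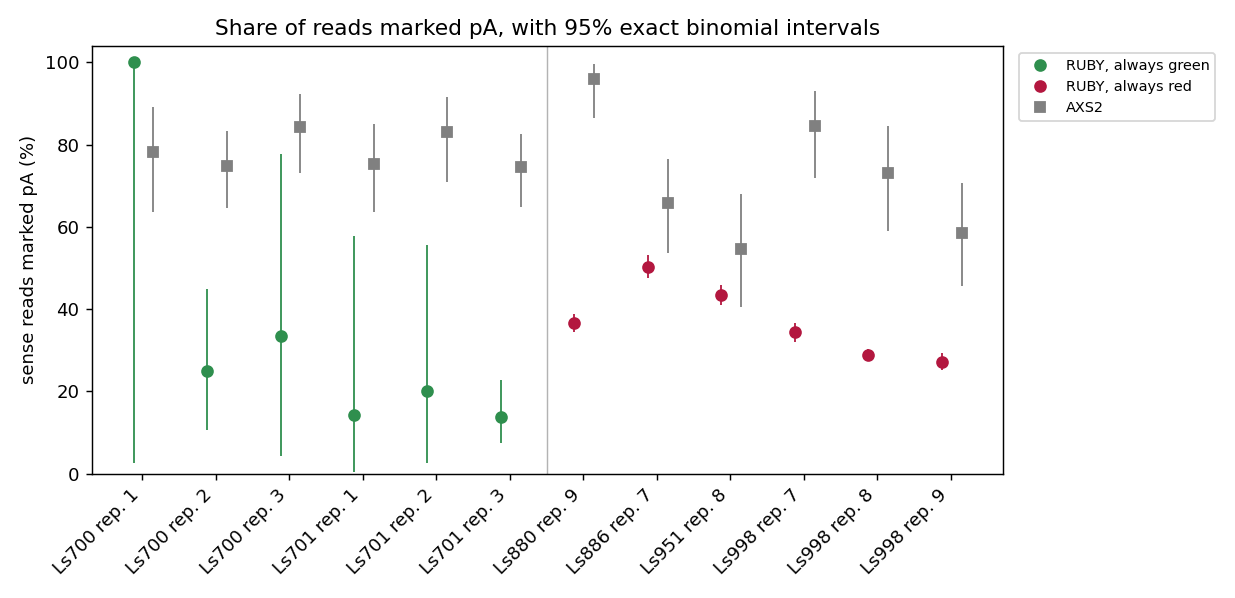
Share of sense reads marked pA (%) for RUBY (circles, green and red by leaf colour) and AXS2 (grey squares) in each library, with 95% exact binomial intervals. Green RUBY intervals are wide because they rest on 1 to 87 reads, and RUBY lies below AXS2 in 11 of 12 libraries.

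Besides RUBY, 3 targets were above 0 in at least 7 of the 12 libraries, and none was called different. How lettuce reads were assigned to targets with Arabidopsis names is not given in the sources used here, so the lettuce gene behind each is not known. AXS2 ranged from 237 to 540 in green leaves (median 353) and from 187 to 475 in red leaves (median 331), and the groups overlapped. Its log2 difference green minus red was 0.20 (SE 0.29, 95% interval -0.43 to 0.83, limma adjusted p = 0.51). UBP1B, named for an Arabidopsis RNA-binding protein that recognises U-rich stretches, ranged from 21.2 to 72.0 in green leaves (median 39.5) and from 21.5 to 51.1 in red leaves (median 29.4), again overlapping. Its difference was 0.35 (SE 0.34, interval -0.38 to 1.08, limma adjusted p = 0.424).

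AGL20, named for the Arabidopsis MADS-box flowering regulator also called SOC1, was read in 10 of 12 libraries, each time with few reads. Its signal ran from 9.36 to 31.8 in green leaves (median 15.9) and from 0 to 39.8 in red leaves (median 14.9). It was at 0 in Ls886 replicate 7 and Ls998 replicate 8, where a count of 0 still allows up to 3 reads, a signal of 19.5 and 10.8. Its difference was 1.12 (SE 0.92, interval -0.87 to 3.12, limma adjusted p = 0.424). The wide interval leaves changes of several fold in AGL20 undetectable at this depth.

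**Figure D3:**
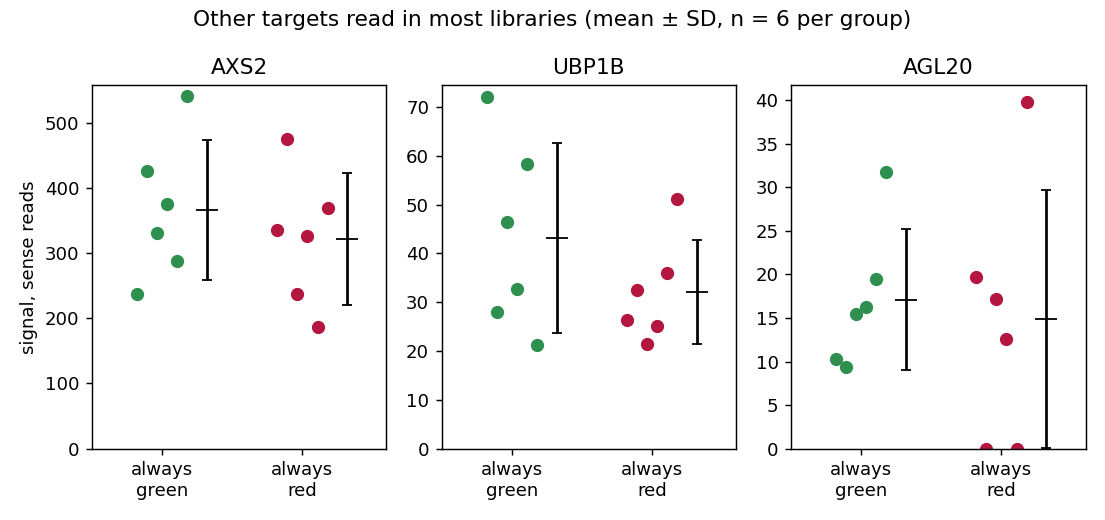
Signal of AXS2, UBP1B and AGL20 in always green and always red leaves, each point a library, with mean ± SD beside it (n = 6 per group, axes from 0). The groups overlap for all 3 targets, and AGL20 is at 0 in 2 red libraries.

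Of the other 28 targets, 20 were at 0 in all 12 libraries and 8 were above 0 in 1 to 3 libraries, too few to test. Since the lettuce gene behind each name is not known, a value of 0 does not show that no such gene was expressed. Among the silencing genes listed for this study, 5 of 8 are in the lettuce tables: AGO1, AGO4, AGO6, SGS3 and SDE3. AGO1, the main microRNA slicer of Arabidopsis, had 1 read in Ls701 replicate 3, and SDE3, an RNA helicase of transgene silencing, had 7 reads in Ls998 replicate 9. The other 3 had none. All 3 genes listed under tyrosine-linked metabolism had reads. PDS1, which makes homogentisate, had 1 read in Ls998 replicate 8. HST, a homogentisate prenyltransferase, had 4 reads in Ls700 replicate 1 and 1 in Ls701 replicate 3. SUR1, a C-S lyase, had 16 reads in Ls998 replicate 9. TAS3, a precursor of trans-acting siRNAs, had 11 reads in Ls701 replicate 2, 1 in Ls886 replicate 7 and 16 in Ls998 replicate 9. Both construct elements in the tables, GUS and eGFP, were at 0 in all 12 libraries. Ls998 replicate 9 stood apart in holding SDE3, SUR1 and TAS3 together, and without it the RUBY difference stayed at -7.57.

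A pair of ubiquitin lines gave both colours. Lines Ls889 (replicates 4 to 6) and Ls998 (replicates 4 to 6), the latter being also the line of 3 always red libraries, gave green and red tissue under the same line and replicate number: green and red parts in 4 cases, and fully green and fully red leaves for Ls998 replicates 5 and 6. Ls889 is labelled AtUBQ in replicates 4 and 5 and LsUBQ in replicate 6, so its promoter is uncertain too. The green tissue had a RUBY signal of 572 ± 238 and the red tissue 8832 ± 6423 (SD, n = 6 each), a log2 difference of -3.78 (exact permutation p = 0.00216, adjusted p = 0.0027). In the parts, red exceeded green 8.83-, 8.33- and 6.85-fold in Ls889 and 4.64-fold in Ls998 replicate 4. In the whole leaves of Ls998 it did so 42.2- and 67.9-fold. The marked share of RUBY was 27.8% ± 13.0 in green and 26.0% ± 8.27 in red tissue (difference 1.87 percentage points, exact permutation p = 0.745). The difference was -6.52 percentage points in the parts (4 against 4, exact permutation p = 0.171) and 18.6 in the whole leaves (2 against 2, p = 0.333).

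The always green libraries held less RUBY RNA on average than the green tissue of these lines. This sets lines Ls700 and Ls701 against lines Ls889 and Ls998, so line and label cannot be told apart. The p-values here measure only the spread between libraries. The log2 difference was -3.30, with the green tissue 4.80-fold higher by means (exact permutation p = 0.00649, adjusted p = 0.0108, n = 6 each). The fold of means was 11.26 without Ls701 replicate 3. Against the 2 whole green leaves alone it was 2.79 and the log2 difference -2.57, which did not pass (exact permutation p = 0.214). The highest always green library, at 461, overlapped the green tissue, whose libraries ran from 228 to 919. Always red leaves and the red tissue differed by 0.50 on the log2 scale, within the spread between libraries (exact permutation p = 0.275). Both sets hold Ls998, and without that line the difference was 0.88 (3 against 3, exact permutation p = 0.1, the smallest possible). Reads marked pA were 1.02 higher on the log2 scale in always red leaves, which did not pass after adjustment (exact permutation p = 0.026, adjusted p = 0.13).

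The green to red difference was larger in always leaves than in tissue of lines with both colours. That tissue mixes leaf parts and whole leaves. By line and replicate number, its RUBY log2 difference green minus red was -3.14 to -2.21 in the parts. In the whole leaves it was -5.40 and -6.08, and the contrast with whole leaves alone was not tested. The difference of the log2 differences was -3.80 for RUBY (limma, SE 0.97, 95% interval -5.80 to -1.80, adjusted p = 0.00271). In this test 2 of 4 targets (50%) were called, RUBY and AGL20. Without line Ls889 the RUBY value was -3.01 and no longer passed (adjusted p = 0.15), and without Ls998, which is in both sets, it was -4.39 (adjusted p = 0.0179).

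The 35S promoter, a strong viral promoter, gave the same ordering in lettuce. Always green 35S leaves (line Ls611 only) had a RUBY signal of 52.0, 23.4 and 105, a range inside that of the ubiquitin green leaves. Always red 35S leaves had 55656 and 29942 (Ls745) and 84740 (Ls608), each above every ubiquitin red library. The log2 difference green minus red was -9.98 (exact permutation p = 0.1, the smallest for 3 against 3). The ubiquitin difference minus the 35S difference was 2.41 for RUBY (SE 1.30, 95% interval -0.33 to 5.15, limma adjusted p = 0.325). By limma 0 of 4 targets (0%) were called, and 0 at an unadjusted p below 0.05. Leaving out 1 line at a time (8 settings) gave RUBY values from 1.56 to 3.26. The highest, 3.26 without Ls700, passed with the lowest adjusted p of the 8 (limma adjusted p = 0.0399).

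**Figure D4:**
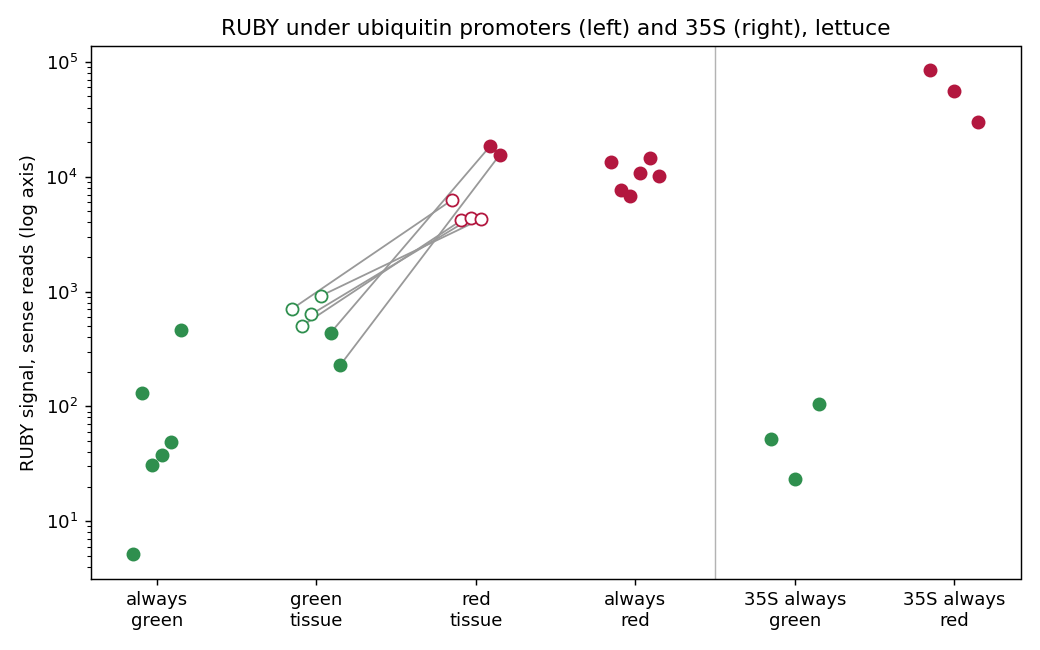
RUBY signal (log axis) in each lettuce library by group, with ubiquitin promoters to the left and 35S to the right of the vertical line. Open circles are leaf parts and filled circles all other libraries. Grey lines join green and red tissue of the same line and replicate number. Always green libraries reach at most 461, and green tissue runs from 228 to 919.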

How the data were processed

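The authors' deposited tables give, for each of 32 targets, a normalised signal of sense reads (marked pA, not marked pA and their sum), with a scaling factor that is not given in the sources used here. The percent of reads marked pA in the deposited tables equals the ratio of the signal columns within 0.00498 percentage points. Per the submitters' processing notes, cutadapt and the TAIR10 build were used, and the aligner is not given in the sources used here. Groups came from titles and construct labels. The series' design text names only 35S:RUBY for lettuce.

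Reads were inferred as multiples of the largest step that divides all values of a library (36 of 36 lettuce libraries gave 1 step, with deviations up to 0.00488 signal units for values rounded to 2 decimals), so they are a minimum and no count model was run. RUBY measures were compared by exact permutation over libraries, 2-sided. Targets above 0 in at least 7 libraries were tested with limma 3.58.1 (R 4.3.3) on log2(signal + 1) with Benjamini-Hochberg adjustment. The added 1 understates folds of low targets. Shares have 95% Clopper-Pearson intervals (scipy 1.17.1). The limma fit was tested on simulated data with many more rows and an equal spread in both groups. That test does not cover the fit to 4 targets of unequal spread used here. Antisense reads were planned but not analysed here, since the lettuce tables used have sense columns only, so 5 RUBY measures were adjusted together. No 2 of the 36 lettuce tables were identical.

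The members and lists were chosen with earlier results of these data known. Targets were named when above 0 in at least 7 libraries, and targets below that were named after their values were seen. Alternatives changed the pseudocount, scaling, filter, promoter label, lines, and libraries left out. Those on folds of means, ranges, whole leaves or parts against always green leaves, Ls998 in the red sets, shares of summed reads by line, and the AGL20 difference were chosen after seeing the data. So was the comparison of the marked share of RUBY with that of AXS2.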

Additional observations from a re-analysis of the deposited data

Results flagged for a closer look

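Outlying libraries were sought in 26 groups of values by Dixon's criterion, which chance meets in about 1 in 20 groups, and 5 values met it. Among always green leaves Ls701 replicate 3 stood above the others in RUBY signal, at 460.59 with the next at 130.97. The same library stood out in RUBY signal not marked pA, at 397.06 with the next at 98.23. Ls700 replicate 1 stood out in the marked share of RUBY, at 100% with the next at 33.3%, and this value is 1 read. In the green tissue of lines with both colours, Ls998 replicate 5 had a marked share of 54.0% with the next at 24.4%. In the red tissue, Ls998 replicate 4 had 41.6% with the next at 26.5%.

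In 2 targets the green to red difference itself differed between the always leaves and the tissue of lines with both colours. That tissue mixes leaf parts and whole leaves. For RUBY the difference of log2 differences was -3.80 (limma adjusted p = 0.00271). For AGL20 it was 3.39 (SE 1.40, limma adjusted p = 0.0472). The AGL20 value rests on 20 reads in always green, 16 in always red, 4 in green tissue and 22 in red tissue, and was 1.20 with a pseudocount of 10 (adjusted p = 0.0936), an alternative chosen after seeing the data.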

How the results depend on the processing

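RUBY was the 1 target called in all 25 alternatives run for that count, which are not all distinct. Leaving out Ls880, Ls886 or Ls951 as a line or as its only library is the same fit. The filter of at least 10 libraries keeps the same 4 targets as the main test. Leaving out 1 library gave RUBY log2 differences of -8.20 to -6.95 for all reads, -8.38 to -7.70 for reads marked pA and -8.35 to -6.62 for reads not marked, and -86.1 to -77.7 percentage points for the RUBY share, all past the threshold. With line means (exact permutation p = 0.133, the smallest for 2 against 4) the 4 values were -7.48, -7.98, -7.45 and -80.4. The promoter of Ls700 and Ls951 is uncertain, so a split by label may mix promoters. With AtUBQ labels alone (6 against 2, exact permutation p = 0.0714) the 4 values were -7.57, -8.20, -7.46 and -80.0. These losses follow from the fewer samples, as does that of the RUBY share in libraries with a RUBY signal of at least 100 (-63.3, p = 0.0714). The marked share of RUBY was the value that turned. Leaving out 1 library moved it from -15.5 (without Ls700 replicate 1) to 1.72 percentage points (without Ls701 replicate 3). It was above 0 also without Ls701 replicate 1 (1.62), Ls701 replicate 2 (0.48) or Ls886 replicate 7 (0.31). By line it was -20.8 without Ls700 (exact permutation p = 0.0238), 16.0 without Ls701 and 0.31 without Ls886, and the cause was not tested. Each of these settings above 0 kept Ls700 replicate 1, whose share of 100% is 1 read. With line means, AtUBQ labels alone, a RUBY signal of at least 100, or reads of a line summed first, the marked share stayed lower in green. These 4 differences ran from -18.5 to -5.71 percentage points (exact permutation, adjusted p from 0.0714 to 0.8). The 35S comparison ran from 1.56 to 3.26 with 1 line left out, highest without Ls700, and that with tissue was -3.01 without Ls889. For AGL20 the latter was lost without Ls700, Ls701, Ls886 or Ls889 (2.10 to 3.82). Tissue differences were -5.74 for RUBY in whole leaves (2 against 2, p = 0.333) and -6.52 percentage points for the marked share in parts, against 18.6 in whole leaves. With the replicate block (sign-flip over 6 pairs of same line and number) they were -3.78 (exact p = 0.0312) and 1.87, as without it. The labels do not say that these numbers pair samples, and deviations correlated from -0.99 to 0.74 over 4 targets. No line could be left out of the 35S green group, which has 1 line.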

Other observations

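AGL20 had few reads, and its marked share did not pass the test between leaf colours. In always green leaves 16 of 20 reads were marked (80% of summed reads, 95% exact binomial interval 56.3 to 94.3), and in always red leaves 3 of 16 (18.8%, interval 4.05 to 45.6). By library the share was 75.0% ± 39.1 in green (n = 6) and 29.2% ± 34.4 in red leaves (n = 4 libraries with a read), a difference of 45.8 percentage points (exact permutation p = 0.0952, adjusted p = 0.286 over 3 targets). In tissue of the ubiquitin lines with both colours, 4 of 4 reads were marked in green and 5 of 22 in red. The marked shares of AXS2 and UBP1B did not pass the same test (exact permutation p = 0.379 and 0.762).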
